A study of Mus musculus with 6 samples.

Results

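The transcripts described here encode the machinery that holds sister chromatids together and then releases them: securin (*Pttg1*), separase (*Espl1*), the cohesin subunits *Rec8*, *Smc1b*, *Smc1a*, *Smc3*, *Stag3* and *Rad21l*, and the shugoshins *Sgol1* and *Sgol2*. These 10 genes were chosen by symbol for their known roles, with earlier results of these data already known. Of the 10, 8 have a row among the 15707 genes of the deposited table of FPKM (sequenced fragments per kilobase of transcript, scaled to the depth of the library). *Rec8* and *Sgol2* have no row under these symbols and are not analysed here, although *Sgol2a*, for which RefSeq gives *Sgol2* as an older name, and its paralogue *Sgol2b* are listed. These paralogues are shown beside the members but are not counted among them. They were added after their values had been seen.

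The study compared oocytes of (C57BL x CBA) F1 mice at metaphase II, the stage at which the egg waits for fertilization. The 3 control libraries came from oocytes given control siRNA and the 3 *Btg4*-depleted libraries from oocytes given siRNAs against *Btg4*, which encodes an adaptor of the CCR4-NOT deadenylase. Each library was made from 50 oocytes. In both groups, follicles from females aged 10 to 12 days had grown in culture for 8 to 10 days, so the oocytes had matured in vitro and not in the ovary. The cDNA was primed on poly(A) tails, and more RNA and a longer tail therefore cannot be told apart. FPKM is relative to the total of a library, so a lower value need not mean fewer transcripts per oocyte. Scaling the groups to each other does not supply that amount. The deposited table gives the mean of the 3 libraries of each group and not the single libraries. The values below thus have no SD, the groups' overlap cannot be judged, and no test between the groups was run.

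Cohesin is a ring of an SMC1 protein, SMC3 and a kleisin, with a STAG subunit bound to the kleisin. Meiotic cells build rings with SMC1B, STAG3 and the kleisins REC8 and RAD21L, beside rings of the mitotic kind. Separase opens the ring by cutting the kleisin. Securin and CDK1-cyclin B hold separase inactive until the anaphase-promoting complex marks securin and cyclin B for degradation. At anaphase I, shugoshin and the phosphatase PP2A protect cohesin at the centromeres, and this cohesin keeps the sisters paired until anaphase II.

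All 7 members with a mean FPKM of at least 1 had a lower group mean in *Btg4*-depleted oocytes. One of them, *Rad21l*, passed this level only through the control group, where it is high, so its direction is partly set by the filter. Log2 ratios were taken of FPKM + 1 after the groups had been scaled to each other, with control as the denominator. They lay between -0.70 for *Smc1b* and -0.47 for *Smc1a*, with a median of -0.55. The median of all 10012 genes at this level was -0.02. Of these genes 50.6% were below 0, and the members stood between percentiles 23.2 and 33.5 of all ratios. The ratios of these 7 members spanned 0.23, against an interquartile range of 1.43 for all genes (-0.66 to 0.77). *Stag3*, listed but below this level (0.26), and *Sgol2a*, not counted as a member (-1.32), lie outside this span. With a pseudocount of 0.1 in place of 1 the 7 members ran from -0.91 for *Rad21l* to -0.48 for *Smc1a*. None of the 7 members was 2-fold lower or 2-fold higher, where 11.4% of all genes were at least 2-fold lower and 19.5% at least 2-fold higher. Scaling decides part of the size. Without scaling, and still of FPKM + 1, the members' log2 ratios ran from -0.85 to -0.61 and the median of all genes was -0.15. At this setting 1677 genes were at least 2-fold lower and 1617 at least 2-fold higher, against 1140 and 1953 after scaling. In the deposited means themselves, without the added 1, the members' changes ran from -55.3% for *Rad21l*, past the 2-fold mark, to -36.1% for *Smc1a*.

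None of the 8 listed members is on the authors' lists of called genes, which hold 0.286% of the genes in the table as lower and 2.03% as higher. The genes called lower that pass the same level had log2 ratios from -5.29 to -1.24, so the members' ratios were smaller in size than any of them. The authors' NOISeq lists also required a change of at least 2-fold, so for that method the gap is partly set by the cut. No member can be said to have changed beyond the spread between libraries, and absence from the lists does not show that a transcript was unchanged. *Btg4*, the target of the siRNAs, was on these lists, at 1766 mean FPKM in control oocytes and 39.3 after depletion.

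**Figure D1:**
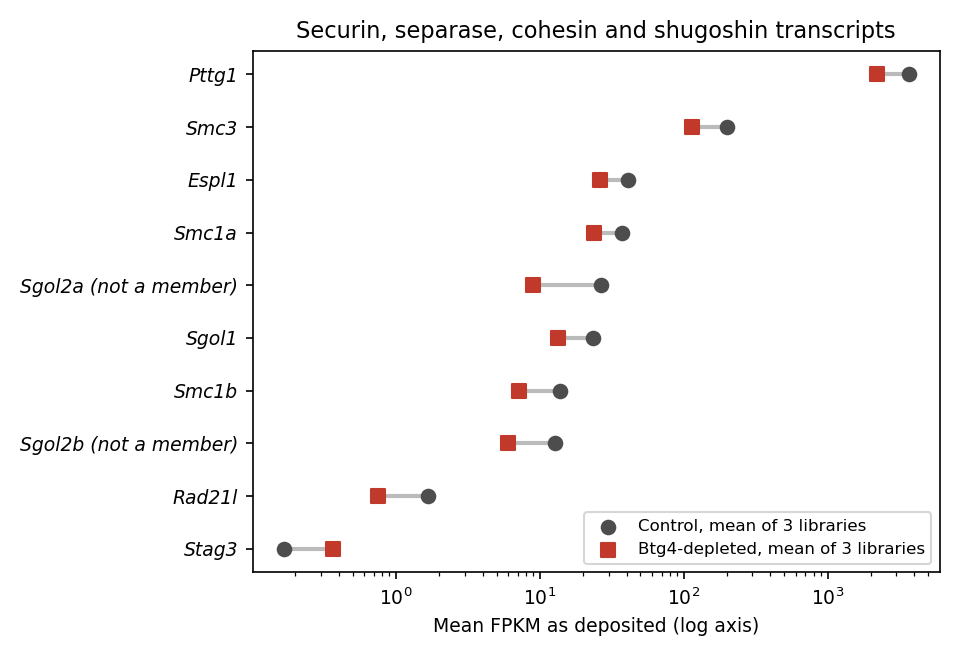
Mean FPKM as deposited (log axis) of the 8 listed members and of *Sgol2a* and *Sgol2b*, in control (circles) and *Btg4*-depleted oocytes (squares), each the authors' mean of 3 libraries, with no error available. Every pair except *Stag3* has the *Btg4*-depleted value to the left, and the levels run from 0.167 for *Stag3* to 3640 for *Pttg1* in control.

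*Pttg1* was by far the most abundant member. Securin was at 3640 mean FPKM in control oocytes, rank 6 of all listed genes, and at 2215 after depletion, rank 11. Its share of summed FPKM was 0.890% and 0.518%. The scaled log2 ratio was -0.55, with a 95% counting interval of -0.57 to -0.53. This interval and those below rest on fragments estimated from FPKM, length and a library size of 7.82 M fragments, and they cover counting error only and leave out the difference between libraries. No 100-base stretch of the *Pttg1* transcript recurs exactly in a transcript of another annotated gene. Near-identical stretches and copies outside annotated transcripts were not examined.

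*Espl1*, the protease that securin inhibits, was far less abundant. Separase was at 41.3 mean FPKM in control oocytes and 26.3 after depletion, a log2 ratio of -0.47 (counting interval -0.52 to -0.42). Per length, securin transcripts thus stood at 88.2 times the separase level in control and at 84.1 times in *Btg4*-depleted oocytes. This quotient is taken within each group and does not depend on the scaling. The quotient of *Pttg1* to *Ccnb1*, which encodes cyclin B1, was similarly close in both groups, at 4.72 and 4.50. Neither quotient is corrected for the trend on length described below. With that trend removed, the log2 ratios were -1.16 for *Pttg1*, -0.01 for *Espl1* and -0.63 for *Ccnb1*, and thus no longer close. These 4 quotients describe transcripts and say nothing of protein, and their spread over libraries is not known.

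The transcript ends are shown because the libraries were primed on poly(A), but whether these ends affect the values was not tested. Sequences of the 3′ ends were read from GENCODE M21 transcripts on GRCm38, a different build from the mm9 that the submitters name, matching genes by Entrez identifier and taking the coding transcript nearest in length. The lines below show up to 30 bases of 3′ UTR, 5′ to 3′ on the transcript, with the poly(A) signal (AATAAA or ATTAAA) or the cytoplasmic polyadenylation element (CPE, TTTTAT or TTTTAAT, the site through which CPEB proteins lengthen tails in oocytes) in capitals. They are shown for the most abundant member, for the somatic SMC1 and for the shugoshins, which held the only CPE matches.
*Pttg1* poly(A) signal, chr11:43420280-43420309, minus strand, exon 6: tttctgtatgtatgttgtattAATAAAgca
*Smc1a* poly(A) signal, chrX:152062654-152062683, plus strand, exon 25: ggacacagatagggtttatctAATAAAtag
*Sgol1* poly(A) signal, chr17:53674812-53674841, minus strand, exon 9: gtggttgtataatatgatataAATAAAcca
*Sgol1* CPE, chr17:53674906-53674935, minus strand, exon 9: acatgtatTTTTATaaaatatgtattgtat
*Sgol2a* poly(A) signal, chr1:58025855-58025884, plus strand, exon 9: ttatttattttttaaatacaaATTAAAaaa
*Sgol2a* CPE, chr1:58025825-58025854, plus strand, exon 9: acttatgtatcaTTTTATcattaattctct

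The *Pttg1* 3′ UTR is only 79 bases long and has its poly(A) signal 39 bases from the end, with no CPE match in it. In *Sgol1* the CPE starts 142 bases from the end and in *Sgol2a* 63 bases. The motifs were searched on the transcript strand, and TTTTAT and TTTTAAT cannot overlap at the same start. Of the members past the level filter, 4 have a 3′ UTR of at least 150 bases, and 1 of these 4, *Sgol1*, has a CPE in the last 150 bases, against 26.5% of 8600 genes with such a UTR. A poly(A) signal stood in the last 50 bases of *Sgol1* and *Smc1a*, 2 of the same 4, against 79.7% of those genes. *Espl1*, *Smc3* and *Smc1b* hold neither motif in these windows, and the *Rad21l* transcript has no annotated 3′ UTR. The *Smc1a* transcript matched here has 4691 bases where the deposited length is 3980, so its end may not be the one counted. Over the 8600 genes the median log2 ratio was -0.42 for the 2281 with a CPE match and 0.04 for the 6319 without one. These medians were not corrected for transcript length, with which the ratios moved as described below. The part of this difference in the members' ratios was not tested.

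Among the cohesin subunits, *Smc3* was the most abundant. SMC3, the partner of either SMC1 protein in the ring, was at 199 mean FPKM in control oocytes and 115 after depletion (log2 ratio -0.63, counting interval -0.66 to -0.60). *Smc1a*, the SMC1 subunit of mitotic rings, was at 37.2 and 23.8 (log2 ratio -0.47, -0.54 to -0.39). *Smc1b*, its counterpart in meiotic rings, was at 13.8 and 7.20 (log2 ratio -0.70, -0.82 to -0.58). Both SMC1 transcripts had a lower mean after depletion, and *Smc1b* had the lowest ratio of the 7 members at a pseudocount of 1, while at 0.1 *Smc1b* was at -0.76 and *Rad21l* lower, at -0.91. *Smc1b* made up 27.0% of the summed SMC1 level in control and 23.3% in *Btg4*-depleted oocytes, so the somatic form was the more abundant in both groups, at 2.70 and 3.30 times *Smc1b*. *Smc3* stood at 3.90 and 3.70 times the sum of both SMC1 transcripts.

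Of the other subunits known for meiotic rings, *Rad21l* and *Stag3* were close to the limit of detection, and *Rec8* has no row. *Rad21l*, a kleisin of prophase I, was at 1.67 mean FPKM in control oocytes and 0.747 after depletion, about 65.0 and 29.1 estimated fragments over 3 libraries. Its log2 ratio was -0.53 (counting interval -0.84 to -0.21) and became -0.91 with a pseudocount of 0.1 in place of 1. *Stag3* was at 0.167 and 0.367, about 16.6 and 36.5 estimated fragments, and was the only listed member with a higher value in *Btg4*-depleted oocytes. It lies below the level filter, and its log2 ratio of 0.26 (counting interval 0.10 to 0.42) becomes 0.92 with the same change of pseudocount. Whether a single library carries these fragments cannot be seen in a group mean.

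**Figure D2:**
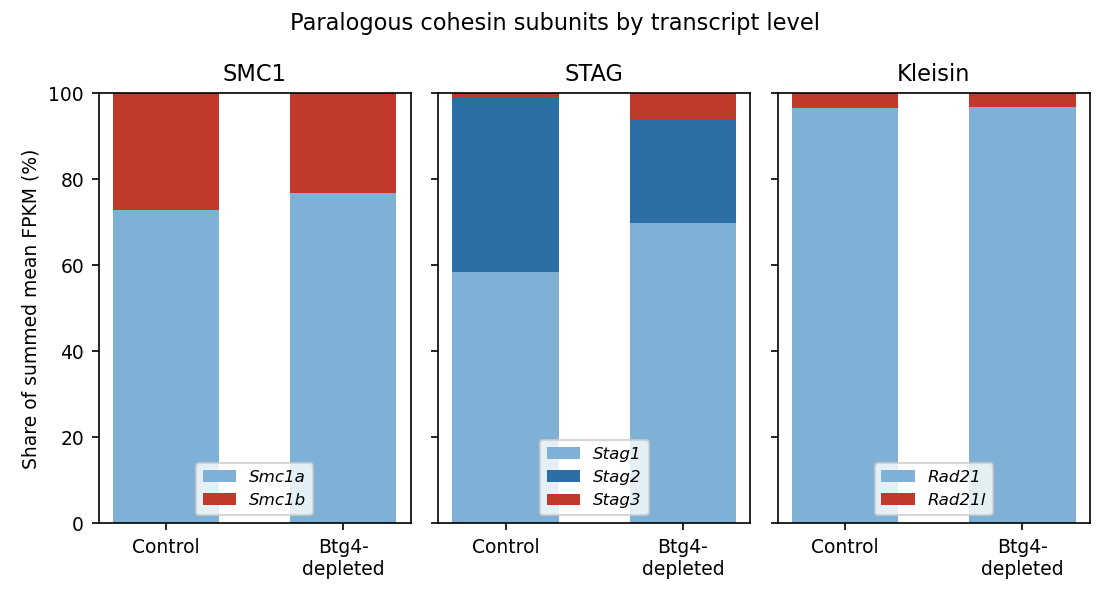
Share of summed mean FPKM (percent, bars from 0 to 100) of paralogous subunits within each group, the authors' means of 3 libraries without error bars, with the meiotic forms *Smc1b*, *Stag3* and *Rad21l* in red. *Rec8*, the other meiotic kleisin, is not in the kleisin bars. The red part is the smallest of each bar, from 0.976% (*Stag3* in control) to 27.0% (*Smc1b* in control).

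The mitotic paralogues were the larger part of the SMC1 and STAG sums. For the kleisin the meiotic share is not known, because *Rec8* is not among the rows analysed and only *Rad21* and *Rad21l* could be compared. *Rad21*, the mitotic kleisin, was at 48.6 mean FPKM in control oocytes and 22.8 after depletion, and *Rad21l* was 3.32% and 3.17% of the summed level of both. *Stag1* was at 9.98 and 4.33, and *Stag2* at 6.93 and 1.50. *Stag3* was therefore 0.976% of the summed STAG level in control and 5.92% in *Btg4*-depleted oocytes. All 3 mitotic subunits had lower ratios than any member, with log2 values of -0.90 for *Rad21*, -0.90 for *Stag1* and -1.55 for *Stag2*, and none is on the authors' lists. This order did not hold once the trend on length described below was removed, where *Rad21* was at -0.78, *Stag1* at -0.49 and *Stag2* at -1.15, against -1.16 for *Pttg1*.

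*Sgol1*, the shugoshin best known for protecting cohesin in mitosis, was at 23.3 mean FPKM in control oocytes and 13.4 after depletion, a log2 ratio of -0.60 (counting interval -0.70 to -0.50). *Sgol2a* encodes shugoshin 2, the protector of centromeric REC8 in mouse oocytes. It was at 26.7 and 8.96 mean FPKM, a log2 ratio of -1.32 (counting interval -1.41 to -1.23), which places it at percentile 3.39 of all genes and past the 2-fold mark that 11.4% of genes reach. *Sgol2b* was at 12.7 and 6.00 (log2 ratio -0.82). *Sgol2a* was thus at 1.15 times the *Sgol1* level in control and at 0.668 times in *Btg4*-depleted oocytes. Neither paralogue is on the authors' lists, and of the 1140 genes at least 2-fold lower the lists hold 41, or 3.60%. *Sgol2a* and *Sgol2b* share only 2 exactly identical windows of 100 bases. Near-identical stretches were not examined, so how many reads could be assigned to both is not known.

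The members differ in length, and length moved with the ratios. Over all 10012 genes the log2 ratio was lower for longer transcripts (Spearman's rho -0.33, a description across genes and not across replicates), and the median length was 3980 bases for the members against 2684 for all genes. After a loess trend on length was removed, the ratios spread out to between -1.16 for *Pttg1* and -0.01 for *Espl1*, with a median of -0.48. *Pttg1*, with 749 bases, lies where the trend is at 0.61, and *Espl1*, with 6630 bases, where it is at -0.46. *Espl1* was therefore at the level of other genes of its length, while *Pttg1* was below them and passed the 2-fold mark. *Smc3* was at -0.33, *Smc1a* at -0.30, *Smc1b* at -0.52, *Sgol1* at -0.48 and *Rad21l* at -0.88, so that all 7 stayed below 0. *Sgol2a* was at -1.01.

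**Figure D3:**
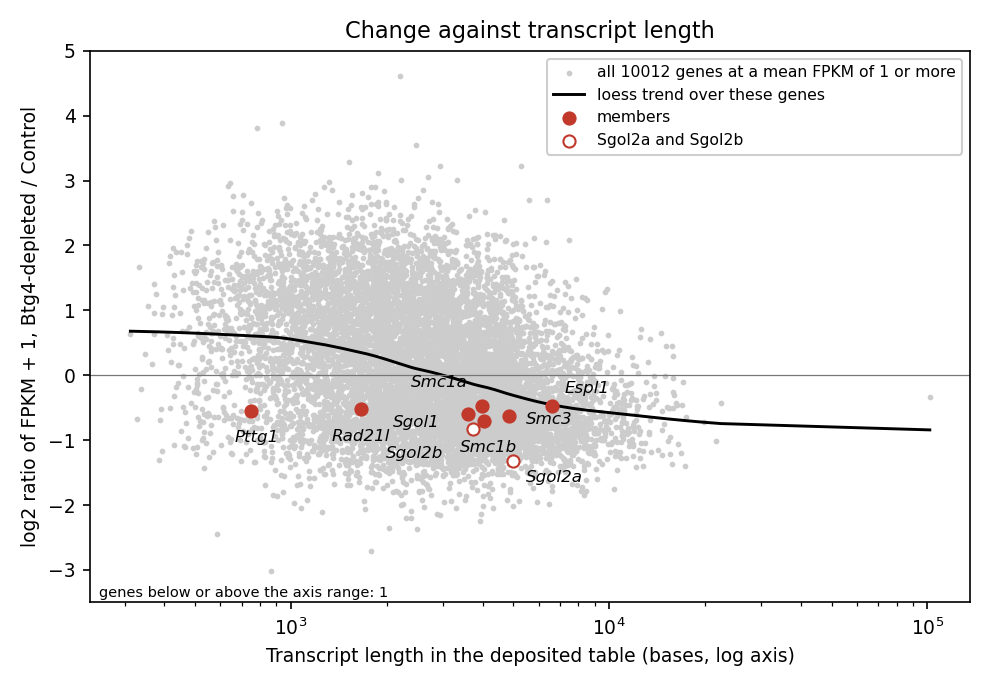
Scaled log2 ratio of FPKM + 1, depleted against control, against deposited transcript length in bases (log axis) for the 10012 genes at a mean FPKM of at least 1 (grey), with the loess trend (line), the 7 members (filled) and *Sgol2a* and *Sgol2b* (open). *Espl1* lies on the trend at -0.47 and *Pttg1* lies 1.16 below it, while the members' own ratios span 0.23 from 749 to 6630 bases.

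Other genes were compared by lists, 4 of genes that act on or in cohesin and 2 of the other SMC complexes, condensin and SMC5/6. Over the 6 lists together, 35 of 51 genes past the level filter were below 0, where 50.6% of all genes are, with a median of -0.53 beside -0.02 for all genes. Of the 51 genes 7 were at least 2-fold lower, close to the 11.4% of all genes, and 5 at least 2-fold higher, where 19.5% of all genes are. None of them is on the authors' lists.

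Of 9 genes for cohesin loading, release and acetylation, 7 were below 0 (median -0.69), beside 50.6% of all genes. *Hdac8*, which deacetylates SMC3, had the lowest log2 ratio, at 13.7 mean FPKM in control oocytes and 4.50 after depletion (-1.27). *Cdca5*, which encodes sororin, an antagonist of the release factor WAPL, had the highest, at 96.4 and 186 (1.10). *Wapal*, the gene of WAPL, was at 56.7 and 31.1 (-0.69). The genes above 0 were *Cdca5* and the loader subunit *Mau2* (0.20).

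Of 16 genes for protection and phosphorylation of cohesin, 7 were below 0, again beside 50.6% of all genes, and the median was 0.05, which became -0.11 without scaling. *Meikin*, a meiotic kinetochore protein that acts with PLK1, was at 1.78 and 5.87 mean FPKM (log2 ratio 1.43), and *Csnk1e*, a casein kinase, at 428 and 187 (-1.03). The PP2A genes lay on both sides, with the catalytic *Ppp2ca* at 13.5 and 28.8 (1.19), the scaffold *Ppp2r1a* at 74.0 and 39.8 (-0.72) and the regulatory *Ppp2r5d* at 12.7 and 31.8 (1.42).

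Of 9 genes that control securin and separase, 7 were below 0 (median -0.48), against the same 50.6%. *Cdc20*, the activator through which the anaphase-promoting complex recognizes securin, had the lowest log2 ratio, at 116 and 47.6 mean FPKM (-1.11). *Cdk1*, the kinase that also inhibits separase, had the highest, at 5.68 and 24.4 (2.07). *Ccnb1* was at 772 and 492 (-0.48) and *Fbxo43*, the gene of EMI2, at 57.9 and 32.2 (-0.67), both within the range of the members. The authors found less EMI2 protein after depletion and report that a loss of polyadenylated *Emi2* mRNA was not the reason. The paper's methods describe PCR of polyadenylated mRNA relative to GAPDH mRNA, whereas FPKM is relative to the whole library. How the authors' *Emi2* measurement relates to the *Fbxo43* values was not tested. Without scaling, the other ratio above 0 among these genes, 0.05 for *Ube2c*, was -0.11.

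**Figure D4:**
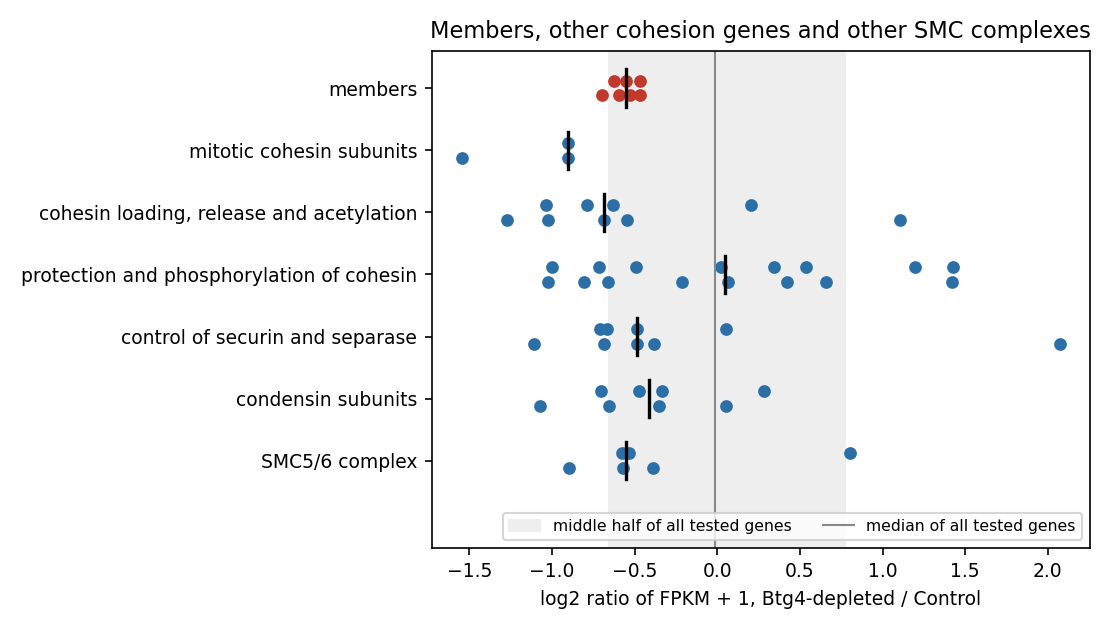
Scaled log2 ratio of FPKM + 1, depleted against control, for the 7 members and the genes of 6 lists at a mean FPKM of at least 1; each point is a gene, the short bar is the median of its list, and the grey band runs from -0.66 to 0.77, the quartiles of all tested genes. The 7 members lie between -0.70 and -0.47, a narrower range than in each list shown, though the lists differ in their number of genes. *Stag3* (0.26, below the filter) and *Sgol2a* (-1.32, not counted as a member) are not drawn and lie outside this range. With the length trend removed, the 7 members run from -1.16 to -0.01 and the mitotic subunits from -1.15 to -0.49.

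The libraries had the markers of oocytes. All 12 oocyte markers were past the level filter, among them *Gdf9*, the oocyte's growth factor, at 4639 and 3395 mean FPKM. Their ratios were not uniform, from -1.19 for *Oosp1* to 2.07 for *Nobox*, and *Nobox*, *Padi6* and *Zp3* are on the authors' lists as higher. Of 16 markers of granulosa and cumulus cells, 10 were listed, with a summed level of 33.5 mean FPKM in control oocytes and 38.6 after depletion, and 6 of these passed the level filter. Of the 6, 3 were at least 2-fold higher and 1 at least 2-fold lower, beside 19.5% and 11.4% of all genes. *Gja1*, a gap junction gene that passed only through the *Btg4*-depleted group, had the highest log2 ratio (2.25, at 0.183 and 4.33 mean FPKM, and 4.10 with a pseudocount of 0.1) and *Cyp19a1*, the gene of aromatase, the lowest (-1.06, at 14.8 and 5.87). *Hsd3b1* (2.15 and 5.59 mean FPKM), *Inhba* (4.28 and 9.24) and *Inha* (8.20 and 12.0) were higher after depletion. *Kitl*, which passed only through the control group, was lower (2.77 and 0.907). The markers *Foxl2*, *Amh*, *Amhr2* and *Fshr*, and the cumulus genes *Ptx3* and *Tnfaip6*, have no row in the table. *Rec8* has none either, so a missing row does not show that a transcript was absent. Of 5 blood cell markers only *Cd68* was listed, at 1.00 and 0.527. The part of these cells in the members' values was not tested.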

How the data were processed

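RNA of 6 samples of 50 oocytes was made into cDNA with a SMARTer kit and sequenced from both ends. BWA and mm9 are named in the submitters' processing notes. The sources used here give no counting program or annotation. The authors deposited the mean FPKM of each group for every gene, with the transcript length, and gene lists from their own tests (the authors ran DESeq2 and NOISeq). Their lists from DESeq2 also hold a signal that the authors computed as the mean normalized count over all libraries, used here only to estimate library size (320 genes, 5th to 95th percentile 6.92 to 8.12 M fragments; 1 FPKM of 2 kilobases is then about 15.6 fragments). Columns of the authors' fold changes, ratios, p-values and probabilities were not used, and only membership of the lists was taken.

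At a level of at least 1 FPKM (mean of both groups), group means were scaled by a trimmed mean of log2 ratios (30% of ratios and 5% of levels trimmed on each side, an offset of 0.16), and log2 ratios of FPKM + 1 were taken. The loess span was 30%. Counting intervals (95%) used the estimated fragments and the delta method. Steps were tested on simulated data. The named genes are the members, *Btg4*, and in each list the called genes and the highest and lowest ratio; others were named after their values were seen. The members and lists were chosen with earlier results of these data known. Python 3.11.15, numpy 2.4.6, pandas 2.3.3, statsmodels 0.14.6 and matplotlib 3.10.9 were used.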

Additional observations from a re-analysis of the deposited data

How the results depend on the processing

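The 7 members past the level filter, of which *Rad21l* passed only through the control group, stayed below 0 under no scaling, median-of-ratios scaling, quantile normalization, pseudocounts of 0.1 and 0.5, no filter and removal of the length trend, as did the 6 left at a minimum of 5 FPKM. The members' median of -0.55 became -0.72 without scaling, -0.63 with a pseudocount of 0.1 and -0.44 without a filter, where *Stag3* joins and the scaling factor is taken over all genes. The number of members at least 2-fold lower, 0, became 1 (*Pttg1*) after removal of the length trend, and 1 (*Sgol2a*) when *Sgol2a* and *Sgol2b* were counted, an alternative chosen after seeing the data. Without *Rad21l*, likewise chosen later, the median was -0.57. At a minimum of 5 FPKM, 708 of all genes were at least 2-fold lower, against 1140. Of 480 values of other named or listed genes under these alternatives, 12 changed sign, in *Aurkb*, *Ncaph2*, *Nipbl*, *Set*, *Smc2* and *Ube2c*. Every alternative compares relative levels, and none gives an amount per oocyte. Leaving out single libraries was not run. No paired analysis was possible because the table holds group means and no values of the numbered libraries. Depth limits *Stag3* and *Rad21l*, and for the other members the missing spread between libraries is the limit.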

Other observations

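The other SMC complexes, which share the ring architecture of cohesin but not its role in cohesion, had ratios on the same side of 0 for most subunits. Of 8 condensin subunits, 6 were below 0 (median -0.41). *Smc4*, a core subunit, was at 593 mean FPKM in control oocytes and 335 after depletion (log2 ratio -0.66), *Ncapg2*, of condensin II, at 24.6 and 9.94 (-1.07, the lowest), and *Ncaph*, the kleisin of condensin I, at 34.4 and 37.6 (0.29, the highest). Of 6 listed genes of the SMC5/6 complex, 5 were below 0 (median -0.55). *Smc6* was at 90.4 and 42.9 (-0.90, the lowest) and *Nsmce1*, a ubiquitin ligase subunit of the complex, at 47.2 and 74.1 (0.80, the highest). None of these genes is on the authors' lists, and 50.6% of all genes were below 0.

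After removal of the length trend the condensin median was -0.22 and that of the SMC5/6 complex -0.71. The long core subunit *Smc2* was then at 0.01, where it had been at -0.35.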
